A study of Mus musculus with 6 samples.

Results

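The genes described here are those that move, store or bind zinc, iron and copper in the kidney. They were taken by symbol alone, as every Slc30a and Slc39a zinc transporter in the deposited table together with Mt1, Mt2, Hmox1, Fth1, Ftl1, Tfrc, Trf, Slc40a1, Slc11a1, Slc11a2, Cp, Heph, Slc31a1, Atp7a and Atp7b. The rule itself uses no measured value, but it was chosen with earlier results of these data known. The rule found 39 genes among 17933. RNA came from whole kidneys of male wild-type C57BL/6 mice aged 6 to 8 weeks, on day 12. The stone group (3 samples) had received 120 mg/kg of glyoxylic acid, a precursor of oxalate, into the peritoneum daily for 12 days to form calcium oxalate crystals in the kidney, and the control group (3 samples) had received saline in equal volume. Whether the samples are separate mice is not spelled out in the labels, so each p-value speaks for the scatter among these 6 samples alone, part or all of which could be technical.

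Zinc, iron and copper are cofactors that are toxic when free, and cells keep them bound and move them through dedicated carriers. Zinc enters the cytosol through importers of the ZIP family (Slc39a), leaves it or is packed into vesicles by the ZnT family (Slc30a), and is buffered by the cysteine-rich metallothioneins. Iron arrives on transferrin, is stored in the ferritin shell, is released from heme by heme oxygenase, and leaves cells through ferroportin with the help of copper-containing ferroxidases. The proximal tubule of the kidney takes up filtered metals and metal-carrying proteins and returns much of them to the blood.

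The promoters of Mt1 and Mt2 are shown first because both genes rose and both are textbook targets of the zinc-sensing factor MTF1, whose binding site is the metal response element. The core of that element was searched as TGCACNC or TGCGCNC on both strands, and matches are in capitals, which read GNGTGCA or GNGCGCA where the match is on the other strand. The Mt2 sequence is the 250 bases before its start (RefSeq, GRCm38.p6, chr8:94172368-94172617, plus strand). It holds 3 matches, and a further match lies at bases 5 to 11 from the start. The Mt1 sequences are 2 stretches of 30 bases, from 34 to 5 bases before the start (chr8:94179055-94179084, plus strand) and over bases 1 to 30 (chr8:94179089-94179118, plus strand), with 3 matches in all. Positions count from the start that the RefSeq promoter table uses, which for Mt1 and Slc30a1 lies inside the RefSeq gene span, whose first base is farther upstream. Which start these kidneys used was not measured, so a match placed after the start need not lie in the RNA. Slc30a1, the zinc exporter of the plasma membrane and also a textbook MTF1 target, is set beside them because it was not called, and its 2 stretches are chr1:191906727-191906756 and chr1:191906800-191906829 (plus strand).
Mt2: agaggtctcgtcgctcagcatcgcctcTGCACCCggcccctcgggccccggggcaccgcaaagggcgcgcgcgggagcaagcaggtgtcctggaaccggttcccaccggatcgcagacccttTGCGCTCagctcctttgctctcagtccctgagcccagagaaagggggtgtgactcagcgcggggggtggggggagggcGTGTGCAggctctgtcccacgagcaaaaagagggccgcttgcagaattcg
Mt1, before the start: cggtcccgctgTGCACACtggcgctccagg
Mt1, after the start: tcTGCACTCcgcccgaaaagTGCGCTCggc
Slc30a1, before the start: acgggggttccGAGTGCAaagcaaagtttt
Slc30a1, after the start: gcctccgggccGAGCGCAgtcgccgcggac

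Over windows of 300 bases around the start (250 before and 50 after), 25.7% of all 32851 RefSeq windows held the core, and 1.97% held 3 or more matches. RefSeq windows were matched for 30 of the 39 genes, and the others are Slc30a8, Slc39a4, Slc39a6, Slc39a14, Trf, Slc11a2, Hmox1, Slc40a1 and Heph. Of the 38 windows of those 30 genes, 17 (44.7%) held the core, and their median GC content was 62.8% against 52.7% over all windows. Mt1, Mt2, Slc30a4 and Slc30a10 had 3 or more matches. Matches on opposite strands were counted apart even where they overlap, as in Slc30a10 at -233 to -227 and -232 to -226. Of the 13 tested genes with the core, 4 rose, 4 fell and 5 were not called, where 43.5% of all tested genes rose and 13.9% fell. A match to the letters is a description and not evidence of binding.

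Iron control is shown in the same way. Iron-responsive elements are small RNA hairpins bound by the iron regulatory proteins when iron is low, and binding blocks translation from a 5′ element and protects the RNA from decay at 3′ elements. The hairpin was searched on the sense strand as a C, 5 bases, the loop CAGTGN and 5 bases that pair with the first 5 (G to U pairs allowed), in the untranslated regions of GENCODE M21 transcripts. It was found in the 5′ region of Fth1, Ftl1 and Slc40a1 and, 4 times, in the 3′ region of Tfrc, and in no other gene of the 39. A hairpin with an unpaired base among these 5 pairs is missed by this search. A gene without a match, such as Slc11a2, can therefore still hold an element. Over all genes of the table, 0.174% had such a match in a 5′ region and 0.692% in a 3′ region, regions whose lengths differ between genes. The 6 bases of the loop are in capitals below. They lie at chr19:9982738-9982754 (Fth1, plus strand), chr7:45459785-45459801 (Ftl1, minus), chr1:45925471-45925487 (Slc40a1, minus) and chr16:32631225-32631241 (the first of Tfrc, plus) in GRCm38.
Fth1: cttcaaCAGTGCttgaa
Ftl1: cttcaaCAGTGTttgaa
Slc40a1: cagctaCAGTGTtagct
Tfrc: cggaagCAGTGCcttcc

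Levels are given as FPKM, which are scaled for gene length and sample total, so they can be compared between genes. Of the 39 genes, 32 averaged 1 FPKM or more and were tested. Slc11a1 reached that level through the stone samples alone. By limma on log2(FPKM + 1) with Benjamini-Hochberg adjusted p below 0.05 over all genes tested, 15 of the 32 were higher in stone kidneys and 6 lower. Over all 12319 tested genes 57.4% were called, 43.5% higher and 13.9% lower, against 65.6% of these 32, so as a set the metal genes were called about as often as the rest of the transcriptome. The median log2 fold change was 0.17 for the 32 genes and 0.21 for all tested genes. The groups did not overlap for 25 of the 32, 16 with the stone samples above and 9 with them below, where over all tested genes 66.3% did not overlap, 49.8% with stone above and 16.5% below.

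Which direction small changes take depends on how samples are scaled. Kap, the most abundant transcript, made up 19.3% to 23.2% of the FPKM sum in control samples and 1.18% to 2.26% in stone samples, and FPKM sums were 711768 to 758514 and 609705 to 613885. After median-of-ratios scaling the median of all tested genes moved by -0.20, 48.8% of them were called, 23.9% higher and 24.9% lower, and of the 32 metal genes 11 rose and 11 fell. Quantile normalization called 47.6% of all tested genes, 22.4% higher and 25.2% lower, and 12 metal genes rose and 9 fell. With samples set to equal FPKM sums the median of all genes moved by 0.24, 75% were called, 68.5% higher and 6.47% lower, and 22 metal genes rose and 3 fell. Rescaled on totals without Kap, 51.6% of all tested genes were called, 36.8% higher and 14.9% lower, and 13 metal genes rose and 7 fell. Of the 21 calls, 14 were made in the same direction under all 13 alternatives, 11 higher and 3 lower. They are Mt1, Mt2, Slc30a7, Slc39a1, Slc39a6, Slc39a10, Trf, Slc11a1, Slc40a1, Cp and Atp7a, which rose, and Slc30a2, Slc39a8 and Slc39a11, which fell.

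**Figure D1:**
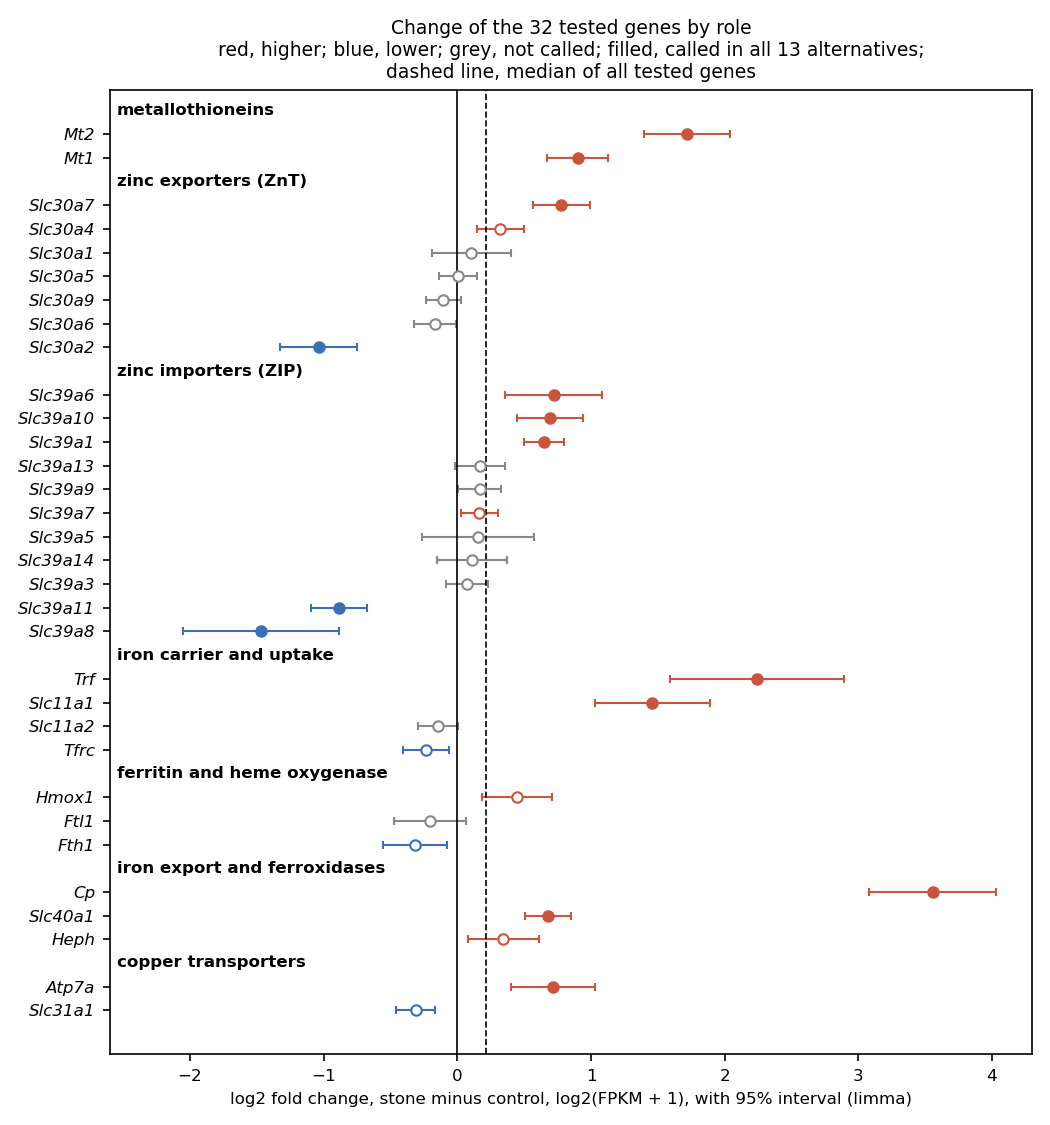
Change of the 32 tested genes by role, as log2 fold change of stone minus control on log2(FPKM + 1) with 95% intervals (limma). Red genes were called higher, blue lower and grey not called, filled points kept the call under all 13 alternatives, and the dashed line is the median of all tested genes at 0.21. Cp, Trf, Mt2 and Slc11a1 lie farthest to the right and Slc39a8 and Slc30a2 farthest to the left.

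Cell type markers differed between the groups, and in bulk tissue fewer cells of a type and less RNA per cell cannot be told apart. The shares to set beside the counts below are 43.5% higher and 13.9% lower over all tested genes. Proximal tubule markers were lower in 9 of 13 tested genes and higher in 0, and their summed level was 154918 to 186002 FPKM in control and 13798 to 19646 FPKM in stone samples, most of it Kap. Of 7 markers of the loop of Henle and distal tubule 4 fell and 0 rose (2200.3 to 2568 against 1468 to 2303 FPKM), with Pvalb tested through the control samples alone, and of 8 collecting duct markers 3 rose and 1 fell (230.5 to 239.8 against 277 to 493 FPKM). Macrophage markers were higher in 7 of 8 tested genes (74.9 to 82.1 against 225 to 557 FPKM), with Csf1r not called and Timd4 at 0.04 FPKM or less. Adgre1 and Mrc1, 2 of the 7, reached the level for testing through the stone samples alone. Of the 3 tested neutrophil markers all 3 rose (2.25 to 5.48 against 20.2 to 29.8 FPKM), with Mpo at 0.03 FPKM or less, and Csf3r was tested through the stone samples alone. Red cell markers were lower in 6 of 6 tested genes (2181 to 3183 against 606 to 765.5 FPKM). Epb42, of the same list but too low to be tested, went the other way, at 0.23 to 0.37 against 0.42 to 0.82 FPKM. The kidney markers of the tubule segments were all present, so the tissue matches its label.

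The metallothioneins rose. Mt1 and Mt2 encode the small cytosolic proteins that bind zinc and copper through cysteines, and they lie next to each other on chromosome 8 (chr8:94178883-94180327 for Mt1 and chr8:94172618-94173567 for Mt2, GRCm38.p6). Mt1 stood at 389.8, 428 and 462 FPKM in controls 1 to 3 and at 716, 855 and 821 FPKM in stone kidneys 1 to 3. Each stone kidney exceeded each control, and Mt1 rose 1.87-fold in mean level, by 0.90 on the log2 scale with an SE of 0.097 (limma, adjusted p = 0.000368). Mt2 stood at 116, 143 and 169 FPKM in controls 1 to 3 and at 428, 478 and 497 FPKM in stone kidneys 1 to 3. The groups were again separate, and Mt2 rose 3.28-fold, by 1.72 on the log2 scale with an SE of 0.14 (limma, adjusted p = 0.00011). Ranked by log2 fold change among all tested genes, Mt2 was at percentile 98.1 and Mt1 at 90.7. The coding sequences of the pair are alike, and how shared fragments were assigned is not stated.

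The ratio of Mt2 to Mt1 within a sample is not altered by multiplying a sample by 1 factor, though quantile normalization can alter it. It was 0.297, 0.333 and 0.367 in control samples and 0.598, 0.559 and 0.605 in stone samples, so Mt2 gained on Mt1 in each stone sample. This ratio and those given further on were chosen after the values were seen and carry no test. The summed metallothionein level was 1.46 ± 0.163 times that of all zinc transporters in control kidneys and 3.23 ± 0.223 times in stone kidneys (SD, n = 3 each). Mtf1, the gene of the zinc-sensing factor, measured 2.70 to 2.96 FPKM in control and 3.56 to 3.88 FPKM in stone samples with a log2 fold change of 0.31 (limma, adjusted p = 0.0159). Median-of-ratios scaling ended that call (limma, adjusted p = 0.214), and quantile normalization turned the log2 fold change of Mtf1 to -0.067 (limma, adjusted p = 0.596).

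**Figure D2:**
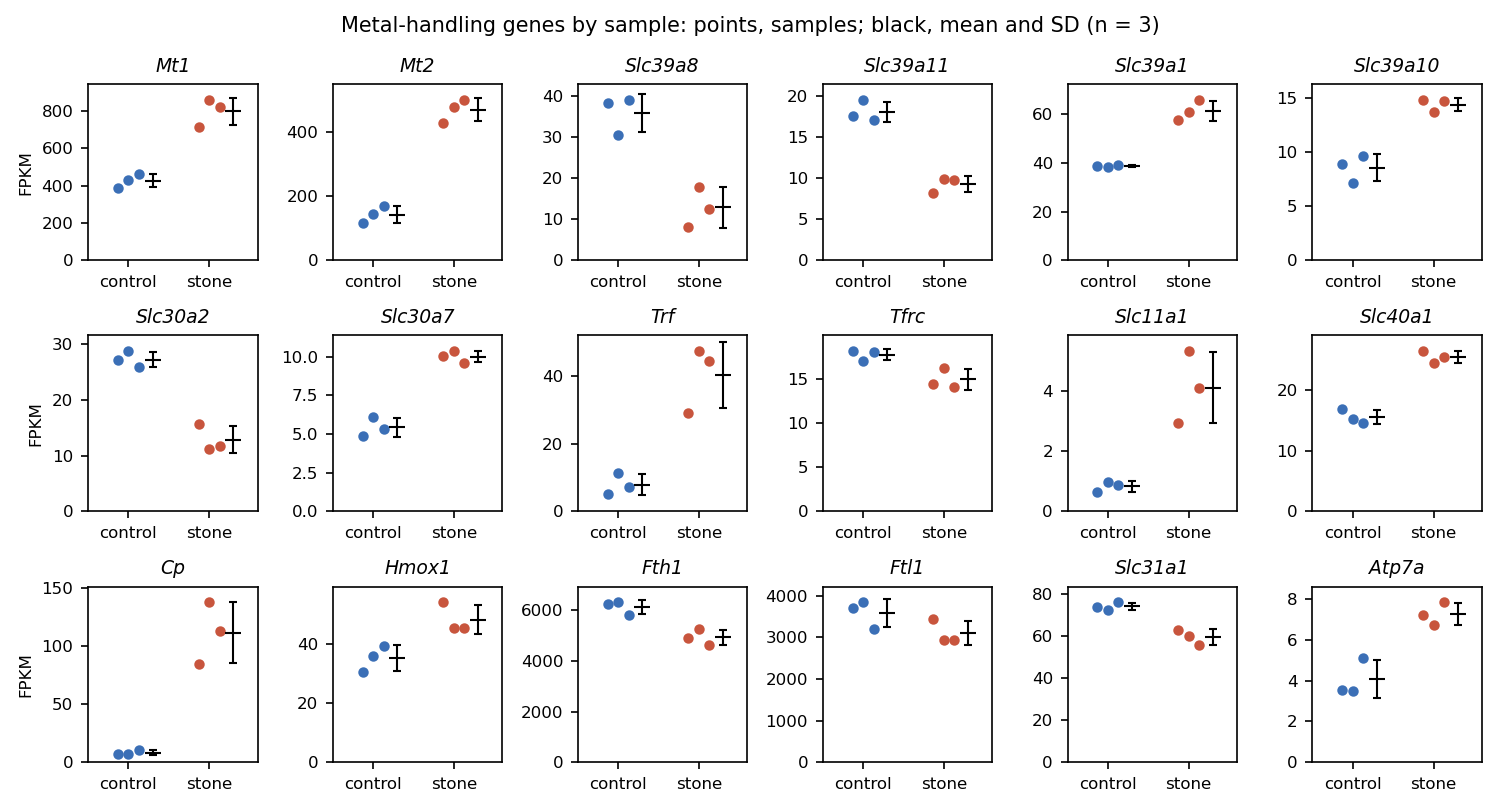
FPKM of 18 metal-handling genes in each sample, control in blue and stone in red, with the mean and SD of 3 samples in black and each axis starting at 0. The stone points of Mt1, Mt2, Trf, Slc11a1, Slc40a1 and Cp lie above every control point, those of Slc39a8, Slc39a11 and Slc30a2 below, and those of Ftl1 overlap the control points.

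The zinc importers went in both directions. Of 14 ZIP genes, 11 were tested, 4 rose, 2 fell and 5 were not called. After median-of-ratios scaling 3 rose and 2 fell, after quantile normalization 3 rose and 3 fell, and with equal FPKM sums 9 rose and 2 fell.

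Slc39a8 and Slc39a11 fell. Slc39a8 encodes ZIP8, an importer of zinc, manganese and cadmium as well as iron, and lies at chr3:135816882-135888572. It stood at 38.3, 30.6 and 38.9 FPKM in controls 1 to 3 and at 8.09, 18.0 and 12.6 FPKM in stone kidneys 1 to 3. Every stone sample was below every control sample, the stone samples differed among themselves by more than 2-fold, and Slc39a8 fell by 1.47 on the log2 scale with an SE of 0.25 (limma, adjusted p = 0.00241). Its mean was 2.79 times higher in control than in stone kidneys. Slc39a11 encodes ZIP11, an importer found on intracellular membranes. It measured 17.5, 19.45 and 17.1 FPKM in control samples and 8.24, 9.92 and 9.75 FPKM in stone samples, a log2 fold change of -0.89 with an SE of 0.090 (limma, adjusted p = 0.000282). Slc39a8 stood at percentile 1.11 and Slc39a11 at 2.70 of all tested genes. Proximal tubule markers fell in the same samples, and their part in these falls was not tested.

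The importers that rose were Slc39a1, Slc39a10, Slc39a6 and Slc39a7. Slc39a1 encodes ZIP1 of the plasma membrane and measured 38.6, 38.5 and 39.03 FPKM in control samples and 57.6, 61.0 and 65.7 FPKM in stone samples. The control samples lay within 1 FPKM of each other, all stone samples lay above them, and Slc39a1 rose by 0.65 on the log2 scale with an SE of 0.064 (limma, adjusted p = 0.000261). Slc39a10 and Slc39a6 encode the related importers ZIP10 and ZIP6. Slc39a10 went from 8.57 ± 1.26 up to 14.4 ± 0.618 FPKM (limma, adjusted p = 0.00154). Slc39a6 went from 1.67 ± 0.357 up to 3.41 ± 0.666 FPKM (SD, n = 3 each; limma, adjusted p = 0.00629). Slc39a7, whose product ZIP7 releases zinc from the endoplasmic reticulum, was at 47.4 ± 0.391 and 53.2 ± 2.77 FPKM and was called narrowly (limma, adjusted p = 0.0458). That call was lost under 9 of the 13 alternatives, and its log2 fold change of 0.16 turned to -0.07 after median-of-ratios scaling.

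Slc39a14, the gene of ZIP14, which shares its metals with ZIP8, was at 11.7, 13.9 and 11.1 FPKM in control and 12.2, 15.2 and 12.6 FPKM in stone samples. These ranges overlap, and the log2 fold change of 0.11 (95% interval from -0.15 to 0.37) was not called (limma, adjusted p = 0.42). The ratio of Slc39a14 to Slc39a8 was 0.307, 0.454 and 0.286 in control and 1.51, 0.846 and 0.994 in stone samples. Slc39a3, Slc39a5, Slc39a9 and Slc39a13 were not called either, with log2 fold changes from 0.07 to 0.17. All 5 uncalled importers turned negative after median-of-ratios scaling and quantile normalization, where Slc39a3 was called lower (-0.21, limma, adjusted p = 0.0464 after quantile normalization), and all 5 were called higher with equal FPKM sums. Slc39a2, Slc39a4 and Slc39a12 were too low to be tested. Slc39a4, the intestinal zinc importer, reached 1.54 FPKM in stone sample 3 and was at 0.03 and 0.42 FPKM in the other stone samples and at 0.07 to 0.29 FPKM in control samples.

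The order of the importers changed at its upper end. In control kidneys Slc39a7 (47.0 to 47.8 FPKM) led, ahead of Slc39a1 (38.5 to 39.03 FPKM) and Slc39a8 (30.6 to 38.9 FPKM), and the ranges of the last pair overlap. Slc39a5, Slc39a13 and Slc39a11 followed with overlapping ranges, and Slc39a9 (14.3 to 15.99 FPKM) and Slc39a14 (11.1 to 13.9 FPKM) came next without overlap. In stone kidneys Slc39a1 (57.6 to 65.7 FPKM) led ahead of Slc39a7 (51.2 to 56.4 FPKM), and Slc39a8 (8.09 to 18.0 FPKM) ranked at position 8 and overlapped Slc39a9, Slc39a10, Slc39a14, Slc39a11 and Slc39a3. The share of Slc39a8 in the summed ZIP level was 15.8% ± 2.01 in control and 5.30% ± 1.86 in stone kidneys (SD, n = 3 each). The ZIP sum itself was 228 ± 1.72 and 241 ± 9.57 FPKM (SD, n = 3 each).

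**Figure D3:**
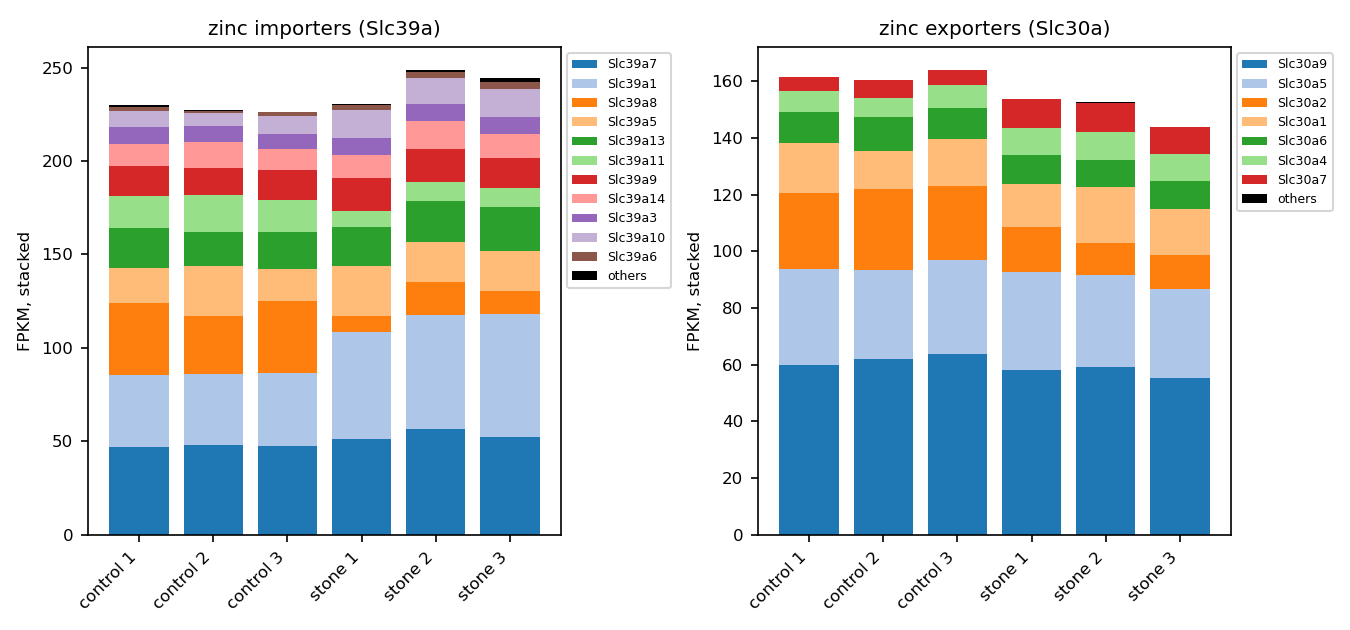
FPKM of the zinc importers (left) and zinc exporters (right) stacked for each of the 6 samples, with genes under 1 FPKM in control kidneys pooled as others. The ZIP stack stays between 226 and 249 FPKM while the Slc39a8 segment shrinks in the stone samples. The ZnT stack is at 160 to 164 FPKM in control and 144 to 154 FPKM in stone samples. Its Slc30a2 segment is smaller and its Slc30a7 segment larger in the stone samples. Both sums are as deposited, and they were not computed under other scalings of the samples.

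Of 10 zinc exporter genes 7 were tested, 2 rose, 1 fell and 4 were not called, beside the 43.5% and 13.9% of all tested genes that rose and fell. Slc30a2 fell. It encodes ZnT2, which loads zinc into vesicles, and lies at chr4:134343046-134354484. Slc30a2 measured 27.0, 28.6 and 25.9 FPKM in control samples and 15.7, 11.1 and 11.8 FPKM in stone samples, with no overlap, and fell by 1.04 on the log2 scale with an SE of 0.12 (limma, adjusted p = 0.000547). Slc30a7, whose product ZnT7 moves zinc into the Golgi, went the other way. It measured 4.86, 6.11 and 5.32 FPKM in control samples and 10.1, 10.3 and 9.61 FPKM in stone samples, and rose by 0.78 with an SE of 0.090 (limma, adjusted p = 0.000475).

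Slc30a4, the gene of the vesicular exporter ZnT4, rose from 6.98 to 8.03 FPKM in control to at least 9.33 FPKM in each stone sample (limma, adjusted p = 0.0088). The Slc30a4 call was lost after median-of-ratios scaling and quantile normalization (limma, adjusted p = 0.217 and 0.748). Slc30a1, the plasma membrane exporter shown above, measured 17.5, 13.4 and 16.6 FPKM in control and 15.3, 19.7 and 16.4 FPKM in stone samples. The ranges overlap, and its log2 fold change of 0.11 (95% interval from -0.19 to 0.40) was not called (limma, adjusted p = 0.493), while with equal FPKM sums it was called higher at 0.37 (limma, adjusted p = 0.0349).

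Slc30a9, which encodes the mitochondrial transporter ZnT9, was the most abundant exporter in both groups at 61.9 ± 1.92 and 57.5 ± 1.97 FPKM (SD, n = 3 each; limma, adjusted p = 0.152). It held 38.2% ± 0.940 and 38.3% ± 0.421 of the ZnT sum. Slc30a5 and Slc30a6, whose products pair in the secretory pathway, had log2 fold changes of 0.01 and -0.17 and were not called (limma, adjusted p = 0.94 and 0.0666). Slc30a5, Slc30a6 and Slc30a9 were called lower, at -0.22, -0.38 and -0.33, once samples were scaled by median of ratios, and Slc30a5 was called higher with equal FPKM sums, at 0.28. In control kidneys the order ran Slc30a9, Slc30a5, Slc30a2, Slc30a1, Slc30a6, Slc30a4 and Slc30a7, and no neighbours overlapped. In stone kidneys Slc30a2 overlapped Slc30a1, and Slc30a7, Slc30a6 and Slc30a4 overlapped each other at 9.33 to 10.3 FPKM. Slc30a3, Slc30a8 and Slc30a10, which belong to brain, islet and liver, stayed at 0.12 FPKM or less and were not tested. Without the filter on low values Slc30a8 was called higher (limma, adjusted p = 0.035) on values of 0 to 0.04 and 0.08 to 0.12 FPKM.

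The genes of iron carriage and uptake split. Trf, which encodes transferrin, the plasma iron carrier made mainly by the liver, stood at 5.09, 11.3 and 7.30 FPKM in controls 1 to 3 and at 29.1, 47.3 and 44.6 FPKM in stone kidneys 1 to 3. Control sample 2 was the highest of its group and still below every stone sample. Trf (chr9:103208876-103230286) rose 5.10-fold in mean, by 2.24 on the log2 scale with an SE of 0.28 (limma, adjusted p = 0.000637). It stood at percentile 99.3. Of 4 tested genes on a list of liver transcripts 0 rose and 3 fell (summed level 1753 to 2135 FPKM in control and 1151 to 1253 FPKM in stone samples), and kidney is known to make some of them, such as Cyp2e1. Alb, the albumin gene, was at 3.19 to 4.59 FPKM in control and 0.99 to 1.85 FPKM in stone samples, and Ahsg was at 0.23 FPKM or less in all samples.

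Tfrc, the gene of the receptor that takes up transferrin, was called lower. It measured 18.1, 17.02 and 18.0 FPKM in control and 14.4, 16.3 and 14.1 FPKM in stone samples, a log2 fold change of -0.23 (limma, adjusted p = 0.0283). The call was lost with equal FPKM sums, where the change was 0.03 (limma, adjusted p = 0.757), and when control 1 or 3 or stone kidney 1 or 3 was left out, with adjusted p up to 0.0921. Tfrc is known to be abundant in erythroid precursors, and the tested red cell markers fell in the same samples. Their part was not tested. The ratio of Trf to Tfrc was 0.281, 0.665 and 0.405 in control and 2.01, 2.91 and 3.16 in stone samples.

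Slc11a1 and Slc11a2 encode the metal transporters NRAMP1, of phagocyte vesicles, and DMT1, of epithelia. Slc11a1 measured 0.63, 0.99 and 0.87 FPKM in control and 2.94, 5.30 and 4.08 FPKM in stone samples, and rose by 1.46 on the log2 scale with an SE of 0.18 (limma, adjusted p = 0.000683). Its lowest and highest stone samples, 1 and 2, were also those with the lowest and highest summed macrophage markers (225 and 557 FPKM). The tubule marker Kap was lowest and highest in the same stone samples. The part of neither in the rise was tested. Slc11a2 measured 28.9, 26.8 and 28.8 FPKM in control and 26.3, 25.6 and 24.1 FPKM in stone samples. The stone samples lay just below the control samples, by less than the test could call as deposited (limma, adjusted p = 0.0863), and Slc11a2 was called lower after median-of-ratios scaling, at -0.37 (limma, adjusted p = 0.00434).

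Fth1 and Ftl1, which encode the heavy and light ferritin chains of the iron store, were the most abundant of the 39 genes. Fth1 measured 6245, 6308 and 5828 FPKM in control and 4904, 5247 and 4633 FPKM in stone samples, all stone values below all control values, and was called lower at -0.32 (limma, adjusted p = 0.0318). The Fth1 call was lost under 8 of the 13 alternatives, among them equal FPKM sums (-0.04, limma, adjusted p = 0.693), no filter (limma, adjusted p = 0.27) and leaving out control sample 1 or any stone sample. Ftl1 measured 3708, 3834 and 3191 FPKM in control and 3434, 2942 and 2934 FPKM in stone samples, which overlap, and was not called (limma, adjusted p = 0.163). Ftl1 was called lower at -0.44 once samples were scaled by median of ratios (limma, adjusted p = 0.037). The ratio of Fth1 to Ftl1 was 1.72 ± 0.095 in control and 1.597 ± 0.178 in stone kidneys (SD, n = 3 each), a difference within the spread. The ferritin pair made up 1.31% ± 0.037 of the FPKM sum in control and 1.31% ± 0.064 in stone kidneys, and 1.65% ± 0.059 and 1.34% ± 0.066 of the sum without Kap.

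Hmox1, the inducible heme oxygenase that frees iron from heme, measured 30.6, 36.0 and 39.4 FPKM in control and 54.2, 45.4 and 45.6 FPKM in stone samples. Each stone kidney exceeded each control, and Hmox1 rose by 0.45 on the log2 scale with an SE of 0.11 (limma, adjusted p = 0.0119). Median-of-ratios scaling ended the call at 0.22 (limma, adjusted p = 0.175).

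All 3 genes of iron export and its ferroxidases were called higher, as were 43.5% of all tested genes, though Heph was called in few of the alternatives. Cp encodes ceruloplasmin, the copper-carrying ferroxidase of plasma, and lies at chr3:19956933-20009750. It stood at 7.55, 7.18 and 10.8 FPKM in controls 1 to 3 and at 84.5, 137 and 113 FPKM in stone kidneys 1 to 3. The lowest stone value was far above the highest control value, and Cp rose 13.1-fold in mean, by 3.56 on the log2 scale with an SE of 0.20 (limma, adjusted p = 3.27e-05). Cp stood at percentile 99.9 of all tested genes and had the largest rise of the 39 under each scaling. Macrophage markers rose in the same samples. On the liver list Alb, Ttr and Cyp2e1 fell, while Serpina1a was at 69.0 to 81.4 FPKM in control samples and 54.1, 229.9 and 146 FPKM in stone samples 1 to 3 and was not called (log2 fold change 0.72, limma, adjusted p = 0.216). The stone values of Serpina1a and of the macrophage sum run in the same order as those of Cp. So do those of the tubule markers Kap and Umod, and 3 samples allow few orders. The part of none of these in the rise was tested.

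Slc40a1 encodes ferroportin, the known iron exporter of cells, and lies at chr1:45908070-45926532. It measured 16.9, 15.2 and 14.6 FPKM in control and 26.4, 24.4 and 25.6 FPKM in stone samples. The groups were separate and tight, and Slc40a1 rose by 0.68 on the log2 scale with an SE of 0.072 (limma, adjusted p = 0.000355). Its stone samples differed by little (25.4 ± 0.994 FPKM, SD, n = 3), and the summed macrophage markers in them were 225 to 557 FPKM, whose part was not tested. The ratio of Slc40a1 to Tfrc was 0.932, 0.895 and 0.809 in control and 1.83, 1.501 and 1.81 in stone samples. Heph, the gene of the membrane ferroxidase hephaestin, measured 2.69, 2.76 and 3.49 FPKM in control and 4.47, 3.96 and 3.71 FPKM in stone samples (limma, adjusted p = 0.0329). The Heph call was lost under 9 of the 13 alternatives, and its log2 fold change of 0.35 became -0.03 after quantile normalization. The ratio of Cp to Heph was 2.60 to 3.10 in control and 18.9 to 34.7 in stone samples.

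**Figure D4:**
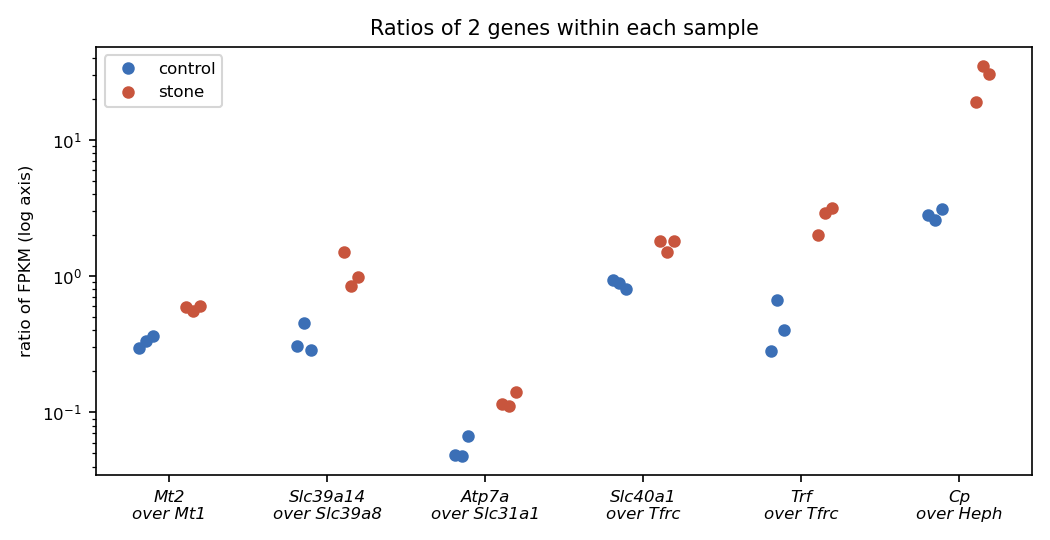
Ratios of the FPKM of 2 genes within each sample on a log axis, control in blue and stone in red. For all 6 ratios the 3 stone samples lie above the 3 control samples, from Mt2 over Mt1 (0.297 to 0.367 against 0.559 to 0.605) to Cp over Heph (2.60 to 3.10 against 18.9 to 34.7). The 6 ratios were chosen after the values were seen.

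The copper transporters went in opposite directions. Slc31a1 encodes CTR1, the importer of copper at the plasma membrane. It measured 73.7, 72.5 and 75.9 FPKM in control and 62.8, 60.0 and 55.7 FPKM in stone samples, and fell by 0.31 on the log2 scale with an SE of 0.063 (limma, adjusted p = 0.0051). Equal FPKM sums ended the Slc31a1 call (-0.04, limma, adjusted p = 0.66). Atp7a, the gene of the copper pump that supplies enzymes of the secretory pathway, measured 3.56, 3.49 and 5.12 FPKM in control and 7.20, 6.73 and 7.81 FPKM in stone samples and rose by 0.72 with an SE of 0.13 (limma, adjusted p = 0.00362). The ratio of Atp7a to Slc31a1 was 0.0483, 0.0481 and 0.0675 in control and 0.115, 0.112 and 0.140 in stone samples. Atp7b, the gene of the related pump of liver, had too low a mean for the test, at 0.95, 1.04 and 1.27 FPKM in control and 0.47, 0.93 and 0.71 FPKM in stone samples, and without the filter on low values it was not called (-0.30, limma, adjusted p = 0.0846).

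**Figure D5:**
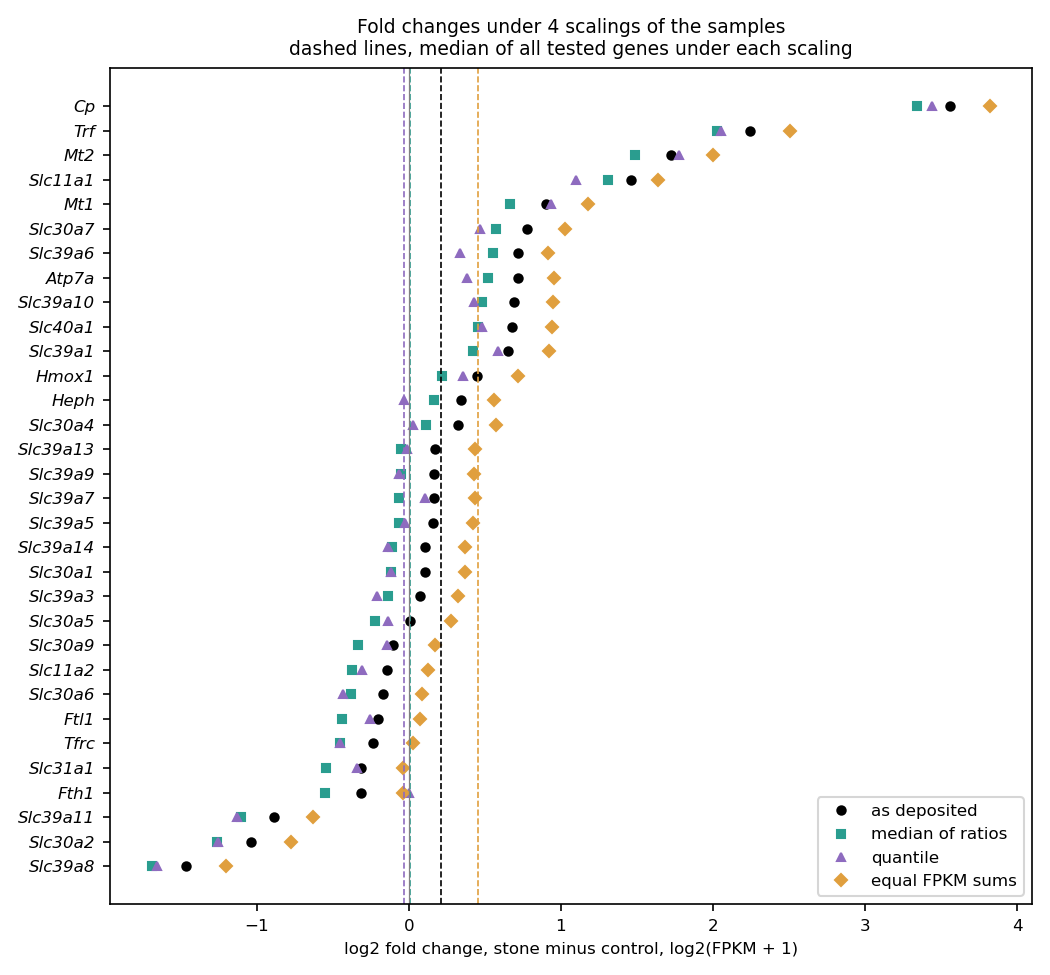
Log2 fold changes of the 32 tested genes as deposited and under 3 other scalings of the samples, with dashed lines at the median of all tested genes under each. Cp, Trf, Mt2 and Slc11a1 stay right of 1 and Slc39a8, Slc30a2 and Slc39a11 left of -0.6 under all 4, while the genes between Slc39a13 and Tfrc lie on either side of 0.

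Related genes of the same pathways were read from the same test. The counts of each list stand beside 43.5% higher and 13.9% lower over all tested genes. Of 10 tested genes in a list of the iron sensors and the hepcidin axis, 5 were called higher and 1 lower. Median-of-ratios scaling left 2 higher and 3 lower. Hamp, the gene of hepcidin itself, is not among the deposited genes, so whether its RNA changed is unknown. Bmp6, the signal that induces hepcidin, rose from 20.5 FPKM in control to 65.4 FPKM in stone kidneys on average, a log2 fold change of 1.63 (limma, adjusted p = 3.82e-05). Hfe, the hemochromatosis gene, rose by 0.68 (limma, adjusted p = 0.000708). Aco1, which encodes iron regulatory protein 1, fell from 103 to 109 FPKM to 82.7 to 89.7 FPKM (limma, adjusted p = 0.00592), while Ireb2, which encodes iron regulatory protein 2, and Fbxl5, the ligase that degrades it, were not called (limma, adjusted p = 0.786 and 0.932). With equal FPKM sums Aco1 stood at -0.004. Ncoa4, the receptor that takes ferritin to the lysosome, rose by 0.47 (limma, adjusted p = 0.00319), which median-of-ratios scaling raised to an adjusted p of 0.0639.

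Among 9 tested uptake accessories and reductases 4 rose and 2 fell, and Steap4, among the 4, was tested through the stone samples alone. With median-of-ratios scaling 4 rose and 5 fell, and with equal FPKM sums 4 rose and 0 fell. On the log2 scale Lcn2, which binds siderophores, rose by 6.43 and the metalloreductase gene Steap2 by 1.21 (limma, adjusted p = 3.36e-05 and 5.61e-05), while Steap3, the endosomal ferrireductase gene of the transferrin cycle, fell by 0.71 (limma, adjusted p = 0.0207) and Lrp2, the gene of the endocytic receptor megalin, fell by 0.36 (limma, adjusted p = 0.0314). Equal FPKM sums ended both calls, with Steap3 at -0.48 and Lrp2 at -0.078 (limma, adjusted p = 0.0691 and 0.578), and quantile normalization ended that of Lrp2 (limma, adjusted p = 0.0913). Of 23 tested genes of heme synthesis, transport and breakdown 5 rose and 8 fell. Median-of-ratios scaling gave 3 that rose and 13 that fell, and equal FPKM sums gave 11 and 3. Alas1, the rate-limiting synthase, had 76.8 to 83.0 FPKM in control and 147 to 166 FPKM in stone samples (limma, adjusted p = 7.80e-05), and Flvcr1, a heme exporter gene, rose by 1.05 (limma, adjusted p = 0.000242). Uros, an enzyme of heme synthesis, fell by 0.94 (limma, adjusted p = 0.000149) and Slc46a1, which moves heme and folate, fell by 1.05 (limma, adjusted p = 6.24e-05), and the biliverdin reductase gene Blvrb was not called (limma, adjusted p = 0.447). Median-of-ratios scaling and quantile normalization called Blvrb lower, at -0.29 and -0.22 (limma, adjusted p = 0.00658 and 0.0231). Equal FPKM sums called Blvrb higher, at 0.21 (limma, adjusted p = 0.0431). Hpx, the heme scavenger gene, was at 0.34 FPKM or less in all samples.

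Genes of mitochondrial iron and iron-sulfur cluster assembly were lower in 11 of 20 tested members and higher in 1, with a median log2 fold change of -0.18 against 0.21 for all tested genes. The cysteine desulfurase gene Nfs1 fell from 70.9 to 77.5 FPKM to 42.5 to 45.5 FPKM and the ferredoxin gene Fdx1 from 43.8 to 47.4 FPKM to 25.8 to 28.8 FPKM (limma, adjusted p = 0.000124 and 0.000177). Scaling by median of ratios gave 15 that fell and 0 that rose, and with equal FPKM sums 4 fell and 6 rose. Slc25a37, the mitochondrial iron importer, was the gene called higher, at 0.20 (limma, adjusted p = 0.0346), and stood at -0.02 after median-of-ratios scaling.

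Of 19 tested copper chaperones and cuproenzymes 10 rose and 3 fell, and median-of-ratios scaling gave 7 in each direction. Lox, Loxl3 and Steap4, among the 10, were tested through the stone samples alone. Aoc1, a copper amine oxidase gene, and Loxl1, a matrix crosslinking oxidase gene, rose by 1.76 and 1.49 (limma, adjusted p = 0.000121 and 0.000178). Slc31a2, a relative of Slc31a1, rose from 10.2 to 10.9 FPKM in control to 18.4 to 22.7 FPKM in stone samples (limma, adjusted p = 0.000404) while Slc31a1 fell. Atox1, which hands copper to the ATP7 pumps, rose by 0.49 (limma, adjusted p = 0.00385), which median-of-ratios scaling raised to an adjusted p of 0.0991. Sod1, the cytosolic copper and zinc superoxide dismutase, fell from 1492 to 1737 FPKM to 866 to 919 FPKM (limma, adjusted p = 0.000236), and Cox11, a copper chaperone of cytochrome oxidase, fell by 0.43 (limma, adjusted p = 0.00433), a call that equal FPKM sums ended at -0.18 (limma, adjusted p = 0.102).

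In the list of zinc regulation and zinc enzymes 3 of 10 tested genes rose and 4 fell. With median-of-ratios scaling 1 rose and 4 fell, and with equal FPKM sums 5 rose and 4 fell. Alpl, the alkaline phosphatase gene, and Car2, a carbonic anhydrase gene, rose by 1.44 and 0.40 (limma, adjusted p = 0.000231 and 0.013), and median-of-ratios scaling ended the Car2 call (limma, adjusted p = 0.292). Ace and Mep1a encode zinc peptidases of the proximal tubule brush border. Ace fell by 2.04 (limma, adjusted p = 0.000105) and Mep1a fell by 1.39 (limma, adjusted p = 0.000103). The proximal tubule markers fell beside them, and their part was not tested.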

How the data were processed

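RNA of whole kidney was measured by sequencing in 3 control and 3 stone samples. The authors deposited FPKM, fragments scaled for gene length and sample total, with 1 column per sample and 0 columns of other samples. Reads were aligned with HISAT2 2.0.4 to GRCm38.p6, per the submitters' processing notes, and the sources used here do not give the gene counter, its annotation or the divisor. Depth cannot be read from FPKM, so it is unknown and no counting intervals are given. Fragments of near-identical copies, such as ferritin pseudogenes, could have been split in counting, and the use of strand is not stated.

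The 12319 of 17933 genes that averaged 1 FPKM or more were tested. Values were transformed to log2(FPKM + 1), a scale that understates the change of low genes, and tested two-sided by lmFit and eBayes with a trend (limma 3.58.1, R 4.3.3), with Benjamini-Hochberg adjustment over all tested genes. A gene was called at an adjusted p below 0.05. The code was tested on simulated data. Alternatives changed the pseudocount, the filter, the scaling of samples, the replicate block and the samples used. A rescaling on totals without Kap was added after the data were seen.

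Every gene of the rule could be named. Of each list of related genes, the 2 called genes with the smallest p in each direction and a set of regulators could be named. The genes and lists were chosen with earlier results of these data known. Coordinates and promoters come from RefSeq (GRCm38.p6), and transcript sequences from GENCODE M21 (GRCm38).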

Additional observations from a re-analysis of the deposited data

How the results depend on the processing

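Of the 21 calls, 7 were lost in at least 1 of 13 alternatives, and in 0 cases was a called gene called in the other direction. As deposited 15 metal genes rose and 6 fell. Median-of-ratios scaling gave 11 that fell, and equal FPKM sums gave 3. Leaving out 1 sample at a time gave 13 to 14 higher and 4 to 6 lower. In the lists of related genes 27 rose and 29 fell as deposited, while median-of-ratios scaling gave 16 and 47, equal FPKM sums 45 and 12, and leaving out samples 23 to 28 and 21 to 27.

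Log2 fold changes that changed sign were all small. After median-of-ratios scaling they were -0.12 for Slc30a1, -0.22 for Slc30a5, -0.14 for Slc39a3, -0.067 for Slc39a5, -0.065 for Slc39a7, -0.054 for Slc39a9, -0.053 for Slc39a13 and -0.11 for Slc39a14. After quantile normalization they were -0.12 for Slc30a1, -0.14 for Slc30a5, -0.21 for Slc39a3, -0.027 for Slc39a5, -0.065 for Slc39a9, -0.012 for Slc39a13, -0.14 for Slc39a14 and -0.032 for Heph. With equal FPKM sums they were 0.089 for Slc30a6, 0.17 for Slc30a9, 0.029 for Tfrc, 0.13 for Slc11a2 and 0.075 for Ftl1. On totals without Kap, chosen after seeing the data, Slc30a5 was at -0.029. With 1 sample left out Slc30a1 ranged from -0.0020 (without control 2) to 0.18, and Slc30a5 from -0.029 (without stone kidney 1) to 0.036, and it was also negative without control 2. The cause was not tested.

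Replicate numbers are shared by the groups, but same-numbered samples did not deviate together (r of deviations across genes 0.0075, -0.22 and -0.04 for numbers 1 to 3), so the numbers were not taken to pair samples. With the replicate block 13 metal genes rose and 4 fell, and 25 related genes rose and 24 fell. Depth is unknown, and genes under 1 FPKM, 7 of the 39, were not tested.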
